A study of Drosophila melanogaster with 12 samples.

Results

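The small heat shock genes of Drosophila melanogaster were followed in the central nervous tissue (ventral nerve cord) of third-instar larvae, at the wandering stage, with mutant kdm5. The 8 genes were chosen by name: Hsp22, Hsp23, Hsp26, Hsp27, Hsp67Ba, Hsp67Bb and Hsp67Bc of the 67B cluster, and l(2)efl, which lies on another chromosome. The choice was made with earlier results of these data known, so the shares called among them do not come from an unselected set. All 8 were found among the 13416 genes present in both deposited count tables. The files list Hsp67Bb under the symbol CG4456, and it was recognised through its RefSeq synonym. Poly(A) RNA was sequenced in 12 samples, 4 for each of 3 genotypes. L854F larvae were homozygous for the kdm5[L854F] missense allele. JmjC larvae were homozygous for kdm5[JmjC*], labelled as demethylase inactive. WT larvae carried the kdm5 140 allele with a rescuing gKDM5 transgene, so they are a rescued mutant line rather than an unmodified strain. As labelled, the mutant lines thus differ from WT in more than the mutation. In every contrast with WT, the mutation and other differences between lines cannot be told apart. All flies were grown at 25C without treatment, and no heat shock is mentioned in the labels. Larval sex, how many animals were pooled and the genetic background of the lines are not given in the sources used here, nor is it stated that samples came from separate crosses, so p-values measure the spread between these samples.

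Small heat shock proteins are chaperones built around an alpha-crystallin domain. They bind unfolding proteins without using ATP and hold them in a soluble state until Hsp70 and its J-domain partners refold them, or until they are degraded. In flies the 67B genes are switched on by the heat shock factor Hsf during stress, and several of them are also switched on without heat by the moulting hormone ecdysone at the end of larval life. KDM5 is a histone demethylase that removes methyl groups from lysine 4 of histone H3.

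The cluster members lie together on 3L:9371511-9385694 (build BDGP6.54, which has dm6 coordinates), a span of 14.2 kb. From left to right the order is Hsp67Bc (minus strand), Hsp67Bb and Hsp22 (plus), Hsp26 and Hsp67Ba (minus), Hsp23 and Hsp27 (plus). All are protein coding. The gene model of Hsp22 (3L:9372931-9374964) lies inside that of Hsp67Bb (3L:9372722-9374964) on the same strand, so reads of this pair can be divided between them and their values are uncertain. Hsp67Ba overlaps an antisense gene, asRNA:CR43481, and Hsp27 overlaps the pseudogene CR43483 on the other strand. l(2)efl (2R:23684651-23685543, minus strand) overlaps St3 on the other strand. The libraries were stranded, but whether counting used the strand is not given in the sources used here. Hsp67Bb differs from the others in kind: its product belongs to the rhodanese (sulfurtransferase) family, and the deposited annotation lists a sulfurtransferase for it beside alpha-crystallin entries.

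Each library held between 15103631 and 16850705 expected counts. The kdm5 transcript itself stood between 729 and 795 CPM (counts scaled to library size, with TMM factors) in L854F, between 727 and 813 CPM in JmjC and between 665 and 734 CPM in WT. Its log2 fold change against WT was 0.11 in both mutants (adjusted p 0.309 in L854F and 0.201 in JmjC, edgeR quasi-likelihood test), and the alleles cannot be read from gene counts. The 10 neuronal markers summed to 4827 to 5679 CPM in L854F, 4987 to 6205 CPM in JmjC and 4969 to 5666 CPM in WT. Their levels differed widely, with elav at 772 CPM or more in every sample and Syx1A as low as 21.3 CPM. Of 10 tested neuronal markers none was called in L854F and 3 were called higher in JmjC. Over all tested genes 3.04% were called higher in L854F and 9.66% in JmjC. The 3 neuronal markers were Syx1A (log2 fold change 0.80, adjusted p 0.00595), nSyb (0.32, adjusted p 0.0323) and VAChT (0.27, adjusted p 0.0471). Transcripts of other tissues were also present. The 9 fat body markers summed to 828 to 1265 CPM in L854F, 1303 to 1562 CPM in JmjC and 1032 to 1241 CPM in WT, most of it apolpp. Of 8 tested fat body markers, 1 was called higher in JmjC and 1 lower, beside 9.66% and 7.67% of all tested genes. These were apolpp (log2 fold change 0.34, adjusted p 0.0433) and Apoltp (-0.20, adjusted p 0.0438). The median log2 fold change of the 8 in JmjC was -0.59. The 15 muscle markers summed to 60.1 to 97.1 CPM in L854F, 62.8 to 75.7 CPM in JmjC and 92.4 to 149.9 CPM in WT, and the 8 hemocyte and basement membrane markers to 199.5 to 227 CPM, 132 to 146 CPM and 232 to 301 CPM in the same genotypes. Of the tested muscle markers, 2 of 11 fell in L854F and 5 of 11 in JmjC, led by Mlc2. Of the hemocyte and basement membrane markers, 2 of 8 fell in L854F (Col4a1 and vkg) and 3 of 7 in JmjC (Col4a1, vkg and Pxn). The share of all tested genes called lower was 2.49% in L854F and 7.67% in JmjC. Col4a1, vkg and Pxn also made up most of the summed CPM of their list. Its other genes, Hml, NimC1, He, eater and srp, did not exceed 10.6 CPM in any sample, and none of them was called. The 10 glial markers summed to 1657 to 2138 CPM in L854F, 2344 to 2876 CPM in JmjC and 1982 to 2381 CPM in WT. They moved in both directions: in JmjC 2 of 10 were called higher and 3 lower, with alrm at 718 CPM in JmjC and 229.6 CPM in WT (log2 fold change 1.65, adjusted p 4.82e-07), and Indy (-0.95, adjusted p 3.35e-05) and Mdr65 (-0.50, adjusted p 0.00342) lower. In L854F 1 of 10 was called, Mdr65 (-0.41, adjusted p 0.0288). The part of these markers in the results below was not tested, and in bulk RNA fewer cells of a type and less RNA per cell cannot be told apart.

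The small heat shock genes were abundant in the nerve cord of every genotype, and together they took more of the library in both mutants than in WT. The 8 genes summed to 5364 to 5937 CPM in L854F, 4593 to 5371 CPM in JmjC and 3441 to 4383 CPM in WT, which is 0.536% to 0.594%, 0.459% to 0.537% and 0.344% to 0.438% of the library. Neither mutant overlapped WT in this sum. Hsp23 alone made up 54.1% to 58.8% of it in L854F, 47.5% to 51.1% in JmjC and 46.7% to 49.6% in WT. Hsp27 made up 18.8% to 21.8% in L854F, 21.8% to 25.4% in JmjC and 31.3% to 33.0% in WT.

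Levels were compared between genes as CPM per kilobase of the deposited gene length. In every genotype Hsp23 was highest, at 3642, 2825 and 2193 CPM per kilobase in L854F, JmjC and WT, and Hsp27 came next at 929, 956 and 1044 CPM per kilobase. Hsp22 was sixth, at 68.6, 136 and 44.1 CPM per kilobase, and l(2)efl was lowest of those with a usable length, at 2.53, 2.80 and 2.11 CPM per kilobase. Between them lay Hsp26, Hsp67Ba and Hsp67Bc. In WT their samples overlapped and their means stood at 210.1, 206.3 and 206.0 CPM per kilobase. In L854F the order was Hsp67Ba (379 CPM per kilobase), then Hsp26 (300.1) and Hsp67Bc (277), the last pair overlapping. In JmjC Hsp26 (377 CPM per kilobase) and Hsp67Ba (353) overlapped, and Hsp67Bc (253) lay below both. All other neighbours in the order differed beyond the range of their samples. No level per kilobase is given for Hsp67Bb, because its deposited length was 427 bases in one table and 1039 in the other.

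**Figure D1:**
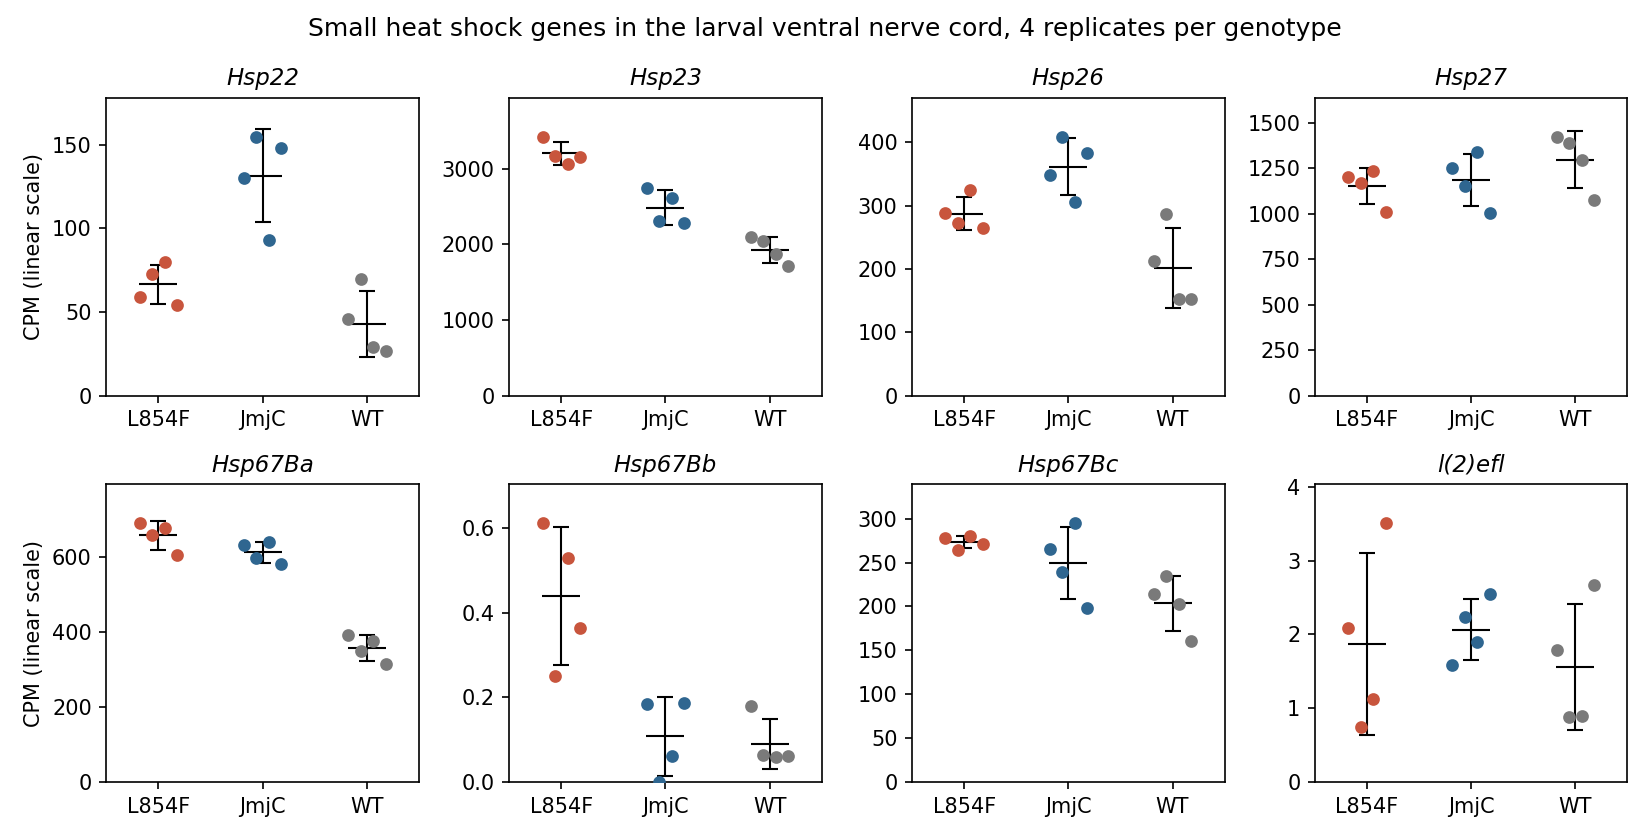
CPM of each small heat shock gene (linear scale starting at 0) in the 4 samples of L854F, JmjC and WT, with points for samples and black bars for the mean and SD. Hsp67Ba and Hsp23 lie above WT in every mutant sample, Hsp22 and Hsp26 are highest in JmjC, and Hsp27 overlaps between all genotypes.

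L854F was first set against WT, to ask what the missense allele goes with. Hsp67Ba, Hsp23 and Hsp67Bc rose, Hsp27, Hsp22, Hsp26 and l(2)efl did not pass the test, and no small heat shock gene fell. That is 3 of 7 tested genes called higher at an adjusted p under 0.05, where 3.04% of all 9105 tested genes were called higher (277 genes) and 2.49% lower. The median log2 fold change of the 7 was 0.51, against 0.00 over all tested genes. Hsp67Bb had too few counts for the test. L854F samples lay wholly above WT for the same 3 genes, as they did for 6.61% of all tested genes (12.7% did not overlap in either direction).

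Hsp67Ba encodes one of the larger members of the family, and among the 7 tested genes it had the largest log2 fold change in L854F. It stood at 690.0, 658, 676 and 604 CPM in L854F replicates 1 to 4, against 393, 348, 375 and 314 CPM in WT. The lowest L854F sample was well above the highest WT sample. The log2 fold change was 0.88 (adjusted p 4.45e-05, SE 0.07), or 1.84-fold with a 95% interval of 1.64 to 2.05. Of all tested genes, 116 had a larger log2 fold change.

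Hsp23 encodes a cytosolic chaperone that is present in glia and neurons without heat. It stood at 3420.2, 3169.85, 3061 and 3154 CPM in L854F, against 2093, 2037, 1874 and 1707 CPM in WT. All 4 L854F samples were higher than all 4 WT samples, and the spread within L854F was small (SD 154 CPM). The log2 fold change was 0.73 (adjusted p 0.000159, SE 0.08), or 1.66-fold. For Hsp23, Hsp67Ba and Hsp67Bc the two-sided exact permutation test on log2 CPM gave p = 0.0286, the smallest that 4 samples against 4 allow.

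Hsp67Bc acts with the co-chaperone Starvin in the autophagic removal of misfolded proteins, much as its mammalian counterpart HspB8 does with BAG3. It stood at 278, 265, 279.8 and 272 CPM in L854F, against 215, 235, 203 and 161 CPM in WT. The groups did not overlap, though the rise was smaller than that of Hsp67Ba or Hsp23. The log2 fold change was 0.43 (adjusted p 0.0218, SE 0.09). The call was lost without WT replicate 3 (adjusted p 0.0576), L854F replicate 1 (0.0611) or L854F replicate 3 (0.0573), and the log2 fold change stayed between 0.42 and 0.43 in those fits.

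Hsp27, whose product is largely nuclear, lies directly beside Hsp23 and did not follow it. It stood at 1199.6, 1171, 1232 and 1010.4 CPM in L854F, against 1422, 1389.7, 1296 and 1076 CPM in WT. The groups overlapped, and the log2 fold change was -0.17 (SE 0.09, 95% interval -0.37 to 0.04, adjusted p 0.379). The ratio of Hsp23 to Hsp27 within a library, which does not depend on scaling, was 2.85, 2.71, 2.48 and 3.12 in L854F replicates 1 to 4 and 1.47, 1.47, 1.45 and 1.59 in WT. This ratio was chosen after the values had been seen.

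Hsp22, a chaperone of the mitochondrial matrix, and Hsp26, a cytosolic one, varied widely among the WT samples. Hsp22 stood at 59.0, 72.7, 79.6 and 54.4 CPM in L854F, against 45.7, 69.5, 29.2 and 26.5 CPM in WT. Hsp26 stood at 288, 273, 325 and 265 CPM in L854F, against 213, 286, 152 and 153 CPM in WT. In both cases WT replicate 2 was the only WT sample within the range of L854F, and the log2 fold changes were 0.64 for Hsp22 (adjusted p 0.201, SE 0.26) and 0.51 for Hsp26 (adjusted p 0.123, SE 0.17). Without WT replicate 2 both were called, at 0.97 for Hsp22 (adjusted p 0.0168) and 0.73 for Hsp26 (adjusted p 0.00709), so 5 of the 7 were then called.

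JmjC was set against the same WT samples, to ask what the allele labelled demethylase inactive goes with. Hsp22, Hsp26, Hsp67Ba and Hsp23 rose, Hsp67Bc, Hsp27 and l(2)efl did not pass the test, and none fell. That is 4 of 7 tested genes called higher, where 9.66% of all 9244 tested genes were called higher (893 genes) and 7.67% lower. The same 4 genes were the ones with no overlap between JmjC and WT on the higher side, a pattern shown by 11.9% of all tested genes (22.7% in either direction). The median log2 fold change of the 7 was 0.41, against 0.00 over all tested genes. Both mutant comparisons share the 4 WT samples.

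Hsp22 had the largest change of the family in JmjC. It stood at 129.8, 155, 93.3 and 148 CPM in JmjC replicates 1 to 4, against 45.7, 69.5, 29.2 and 26.5 CPM in WT. Every JmjC sample was above every WT sample, with JmjC replicate 3 and WT replicate 2 the closest. The log2 fold change was 1.62 (adjusted p 0.00206, SE 0.27), or 3.08-fold with a 95% interval of 2.03 to 4.68, and 163 tested genes had a larger one. Leaving out any single sample gave between 1.45 and 1.96, always called.

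Hsp26 behaved alike at a smaller size. It stood at 348, 409, 305 and 383 CPM in JmjC, against 213, 286, 152 and 153 CPM in WT, with no overlap. The log2 fold change was 0.84 (adjusted p 0.00936, SE 0.18). JmjC replicate 3 was again the lowest JmjC sample and WT replicate 2 the highest WT sample.

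Hsp67Ba and Hsp23 showed a tighter pattern. Hsp67Ba stood at 631, 598, 639 and 581 CPM in JmjC, against 393, 348, 375 and 314 CPM in WT (log2 fold change 0.78, SE 0.07, adjusted p 3.48e-05). Hsp23 stood at 2743, 2308, 2606 and 2277 CPM in JmjC, against 2093, 2037, 1874 and 1707 CPM in WT (log2 fold change 0.37, SE 0.08, adjusted p 0.0118). JmjC replicate 3 was not low for these genes, being the highest JmjC sample for Hsp67Ba and the second for Hsp23. For the 4 called genes the exact permutation test again gave p = 0.0286, the smallest possible.

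Hsp67Bc stood at 266, 239, 295 and 199 CPM in JmjC, against 215, 235, 203 and 161 CPM in WT. The groups overlapped through JmjC replicate 4, the log2 fold change was 0.30 (SE 0.13, 95% interval 0.01 to 0.58, adjusted p 0.147), and without that sample the gene was called (0.39, adjusted p 0.0475). Hsp27 stood at 1252, 1152, 1338 and 1003 CPM in JmjC, overlapping its WT values, with a log2 fold change of -0.13 (SE 0.10, 95% interval -0.36 to 0.10, adjusted p 0.440). The ratio of Hsp23 to Hsp27 was 2.19, 2.00, 1.95 and 2.27 in JmjC, all above the WT ratios of 1.45 to 1.59.

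L854F was then set against JmjC, a direct test of whether the mutant effects differ. Hsp23 was higher in L854F than in JmjC, Hsp22 and Hsp26 were lower, and Hsp67Ba, Hsp67Bc, Hsp27 and l(2)efl did not pass the test. That is 3 of 7 genes called in either direction, where 16% of all 9207 tested genes were called (7.2% higher and 8.8% lower in L854F). With the replicate number as a block, 2 of 7 were called, Hsp22 and Hsp23, against 22.1% of all tested genes. Groups did not overlap for Hsp23 and Hsp22, against 20.9% of tested genes in either direction and 10.3% on the higher side. For Hsp23 all L854F samples lay above all JmjC samples and the log2 fold change was 0.37 (adjusted p 0.00799, SE 0.08). For Hsp22 all L854F samples lay below all JmjC samples, with a log2 fold change of -0.98 (adjusted p 0.00174, SE 0.16). With the block these were 0.38 and -0.97, both called.

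Hsp26 had the weakest of these calls. Its log2 fold change in L854F against JmjC was -0.32 (adjusted p 0.0352, SE 0.09), and L854F replicate 3 (325 CPM) lay above JmjC replicate 3 (305 CPM). The call was lost with the replicate number as a block (adjusted p 0.0513), with all 12 samples in one fit (0.190), and without any one of L854F replicates 1, 2 and 4 or JmjC replicates 1, 2 and 4 (0.0665 to 0.101). Hsp67Ba, raised in both mutants against the same WT samples, gave a log2 fold change between the mutants of 0.11 (SE 0.06, 95% interval -0.03 to 0.24, adjusted p 0.262). For Hsp67Bc the value was 0.14 (SE 0.10, 95% interval -0.08 to 0.36) and for Hsp27 -0.04 (SE 0.09, 95% interval -0.24 to 0.17).

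**Figure D2:**
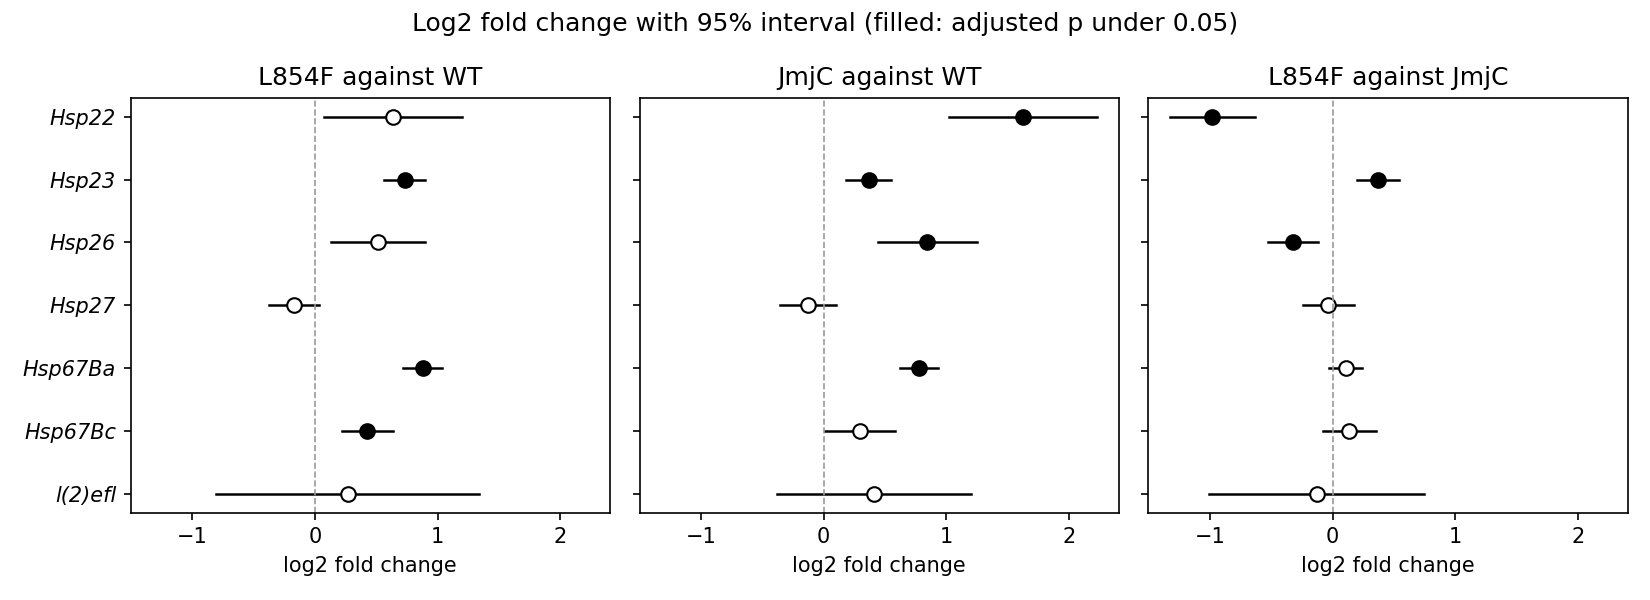
Log2 fold change of the 7 tested small heat shock genes in L854F against WT, JmjC against WT and L854F against JmjC, with 95% intervals from the edgeR fits and filled points at an adjusted p under 0.05. Hsp67Ba lies near 0.8 in both mutants, Hsp22 is at 1.62 in JmjC and -0.98 in L854F against JmjC, and Hsp27 stays near 0 in all panels.

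Both remaining genes were scarce. l(2)efl, the fly relative of alpha-B crystallin and a protein of muscle Z-discs, had 34, 12, 17 and 58 counts in L854F, 26, 36, 31 and 41 in JmjC and 30, 14, 15 and 44 in WT. Replicate 4 was the highest sample in each genotype, and the ranges overlapped. Its log2 fold changes against WT were 0.27 in L854F (95% interval -0.80 to 1.34) and 0.41 in JmjC (95% interval -0.38 to 1.197), and neither was called.

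Hsp67Bb had 10, 4, 8 and 6 counts in L854F, 3, 0, 1 and 3 in JmjC and 3, 1, 1 and 1 in WT. Summed over samples that is 28 counts in L854F (exact Poisson 95% interval 18.6 to 40.5), 7 in JmjC (2.81 to 14.4) and 6 in WT (2.202 to 13.1), intervals that cover counting error only. Every L854F sample had more counts than every JmjC and WT sample. With no filter on low counts, the log2 fold change of L854F over WT was 2.18 by edgeR (adjusted p 0.0941) and 2.28 by DESeq2 (adjusted p 0.119). Over JmjC it was 1.96 by edgeR (adjusted p 0.0898) and 2.04 by DESeq2 (adjusted p 0.0969). These values exceed those of every tested member in the same comparisons, did not pass the test, and rest on 0 to 10 counts a sample.

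In the authors' deposited table the same 3 genes had an adjusted p under 0.05 in L854F, at 7.42e-29 for Hsp67Ba, 1.46e-22 for Hsp23 and 0.000712 for Hsp67Bc. In the authors' deposited table for JmjC the same 4 genes passed, at 1.01e-23 for Hsp67Ba, 0.000252 for Hsp22, 0.000346 for Hsp23 and 0.00872 for Hsp26. Only Hsp22 in JmjC carries the authors' "Up" mark there.

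Other heat-inducible transcripts were read beside the small heat shock genes, since Hsp22 and Hsp26 shared a pattern with them over the JmjC and WT samples. The 6 Hsp70 copies, which refold what the small chaperones hold and which share reads, were summed. They stood at 1355, 1881, 1469 and 1268 CPM in L854F, 2900.1, 3690.3, 1018 and 3873 CPM in JmjC and 1605, 2845, 768 and 784 CPM in WT. JmjC replicate 3 was thus low and WT replicate 2 high, as for Hsp22 and Hsp26, and the genotypes overlapped. Hsp68, an inducible Hsp70 relative, stood at 238, 229, 194 and 191 CPM in L854F, 452, 468, 188 and 529 CPM in JmjC and 172, 319, 93.2 and 116 CPM in WT. The L854F samples did not share the pattern. Among them Hsp22 and Hsp26 were highest in replicate 3, summed Hsp70 in replicate 2 and Hsp68 in replicate 1.

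The part of the sample pattern shared in JmjC and WT in the rise of Hsp22 and Hsp26 in JmjC was not tested. JmjC replicate 3 had 1018 CPM of summed Hsp70, 93.3 CPM of Hsp22 and 305 CPM of Hsp26. WT replicates 1 and 2 had more summed Hsp70 (1605 and 2845 CPM), less Hsp22 (45.7 and 69.5 CPM) and less Hsp26 (213 and 286 CPM). WT replicates 3 and 4 had less summed Hsp70 (768 and 784 CPM), less Hsp22 (29.2 and 26.5 CPM) and less Hsp26 (152 and 153 CPM). This comparison rests on JmjC replicate 3 alone, which was picked after its values had been seen, so it is a description only. The ratio of Hsp22 to Hsp26, chosen in the same way and not tested, was 0.306 to 0.387 in JmjC, above 0.205 to 0.267 in L854F and 0.173 to 0.243 in WT. Hsp23 and Hsp67Ba did not share the pattern, with JmjC replicate 3 among their higher JmjC samples.

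**Figure D3:**
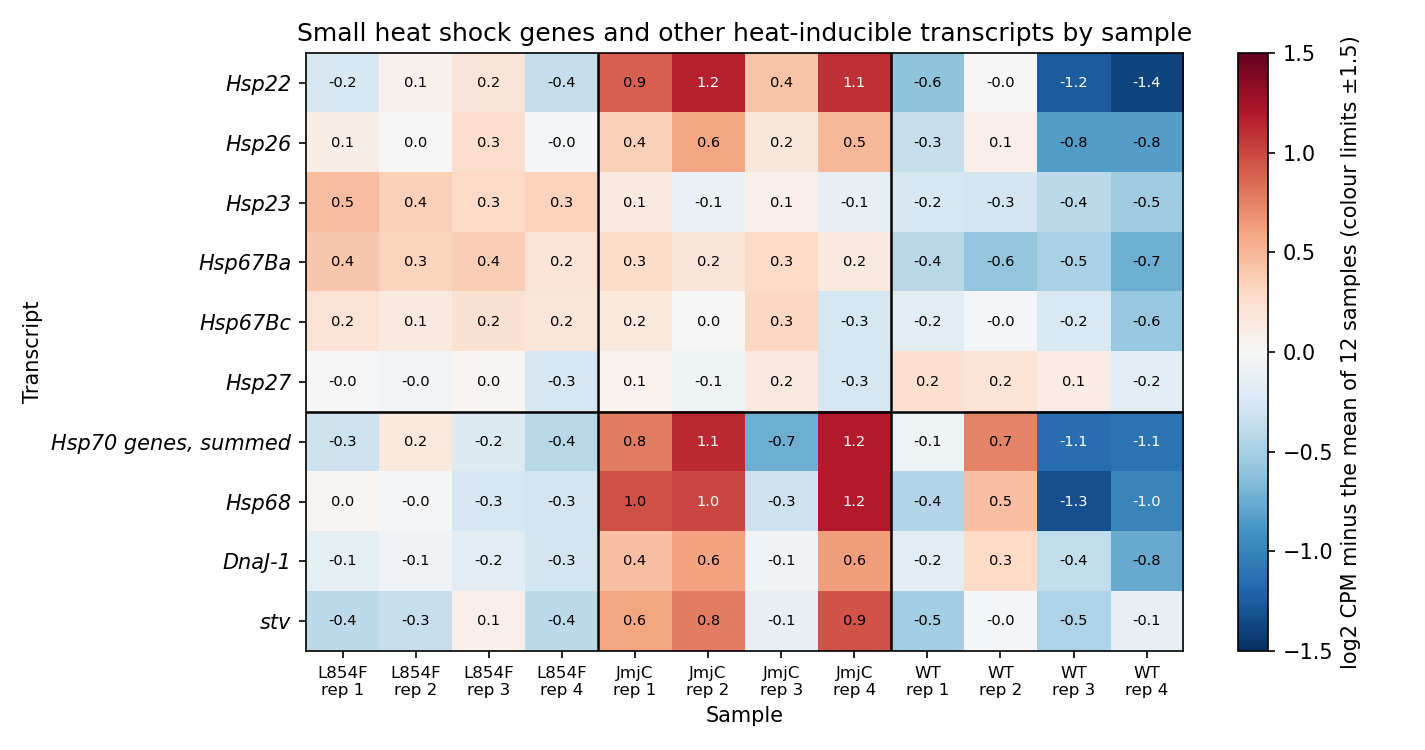
Log2 CPM minus the mean over the 12 samples for 6 small heat shock genes (upper rows) and for the summed Hsp70 genes, Hsp68, DnaJ-1 and stv (lower rows), with samples in columns by genotype. JmjC replicate 3 is lower and WT replicate 2 higher than their groups in the lower rows and in Hsp22 and Hsp26, while Hsp23 and Hsp67Ba are uniformly above WT in all mutant samples. Within L854F, replicate 3 is highest in Hsp22, Hsp26 and stv but not in the other lower rows.

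Of 12 tested inducible chaperones outside the family (Hsp70 copies, Hsp68, Hsp83, Hsp60 genes, DnaJ-1 and lncRNA:Hsromega), none passed in L854F and 1 rose in JmjC, where the background was 5.54% and 17.3% of tested genes called in either direction. Their median log2 fold change was 0.01 in L854F and 0.84 in JmjC. Of these 12, 6 are Hsp70 copies that share reads, so they are not separate observations. The copies stood between -0.40 and 1.02 in JmjC, and Hsp83, lncRNA:Hsromega and Hsp60A at 0.13, 0.12 and -0.05. The gene that rose in JmjC was Hsp60D, a scarce chaperonin (log2 fold change 1.75, SE 0.27, adjusted p 0.00121, 2.01 CPM in JmjC and 0.589 CPM in WT). Hsp68 had a log2 fold change of 1.23 in JmjC (adjusted p 0.0515, SE 0.39) and DnaJ-1, a J-domain partner of Hsp70, 0.63 (adjusted p 0.0571, SE 0.20), and their groups overlapped. Between the mutants, 4 of the 12 were lower in L854F than in JmjC, as were 8.8% of all tested genes, with DnaJ-1 at -0.58 (adjusted p 0.00985), Hsp68 at -0.93 (adjusted p 0.0244) and Hsp60D at -1.23 (adjusted p 0.00885).

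Of 13 tested genes for Hsf, co-chaperones and constitutive Hsp70 relatives, 1 fell in L854F, and in JmjC 2 rose and 2 fell, beside 2.49% of all tested genes called lower in L854F, and 9.66% called higher and 7.67% lower in JmjC. The genes that rose in JmjC were stv, which encodes the Starvin partner of Hsp67Bc (log2 fold change 0.86, SE 0.20, adjusted p 0.0120), and Hsf, the transcriptional activator of the family (0.21, SE 0.06, adjusted p 0.0336). stv stood at 85.9, 97.4, 52.5 and 110.0 CPM in JmjC, against 40.3, 56.0, 41.5 and 52.5 CPM in WT, with JmjC replicate 3 again lowest. Hsf stood between 116 and 126 CPM in JmjC and between 93.0 and 111 CPM in WT. The gene that fell in both mutants was Hsc70-1, which spread widely in WT, from 3.44 to 24.03 CPM, and was at 0.244 CPM or less in every mutant sample. Hsc70-3, the chaperone of the endoplasmic reticulum, fell in JmjC (968 CPM in JmjC and 1134 CPM in WT, adjusted p 0.0362).

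Among alpha-crystallin genes outside the 8, CG14207 alone was expressed enough to test. It stood between 179 and 222 CPM in L854F, between 192 and 201 CPM in JmjC and between 155 and 168 CPM in WT, without overlap between either mutant and WT. Its log2 fold change was 0.25 in L854F (adjusted p 0.0574, SE 0.07) and 0.26 in JmjC (adjusted p 0.00196, SE 0.04). CG7409, CG4461 and CG13133 did not exceed 0.551 CPM in any sample, and CG43851 was absent from the deposited counts. CG4461 lies inside the 67B cluster, between Hsp22 and Hsp26.

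Ecdysone response genes were examined because the hormone induces several small heat shock genes at this stage. Of 20 tested, 1 rose and 1 fell in L854F, and 1 rose and 2 fell in JmjC, shares near those of all tested genes (3.04% higher and 2.49% lower in L854F, 9.66% higher and 7.67% lower in JmjC). Their median log2 fold change was 0.09 in L854F and -0.09 in JmjC. Eip71CD, a methionine sulfoxide reductase gene, fell in both (log2 fold change -0.76 in L854F, adjusted p 0.000123, and -0.69 in JmjC, adjusted p 4.04e-05). Eip78C, a nuclear receptor gene, rose in L854F (0.31, adjusted p 0.0437). In JmjC ImpE2 fell (-1.71, adjusted p 0.0420) and ImpL2, an insulin-binding protein gene, rose (0.31, adjusted p 0.0446). Between the mutants 3 of the 20 were called higher in L854F, as were 7.2% of all tested genes. They were Eip78C, ImpE3 and ImpE1 (log2 fold changes 0.81, 0.90 and 0.70).

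Of 10 tested genes of JNK and FOXO signalling, which can induce small heat shock genes during stress and ageing, 1 rose in L854F and 3 in JmjC, where 3.04% and 9.66% of all tested genes were called higher. puc, the phosphatase that is a feedback target of JNK, rose in L854F (log2 fold change 0.23, adjusted p 0.0468) and in JmjC (0.48, adjusted p 0.000309). Thor, the 4E-BP target of FOXO (0.49, adjusted p 0.0166), and Jra, the fly Jun (0.19, adjusted p 0.0425), rose in JmjC. None of the 9 tested autophagy genes passed in either mutant or between them, and their log2 fold changes against WT lay between -0.12 and 0.19.

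The genes around the cluster were read to see how far the pattern extends along the chromosome. The 25 kb on each side of the members and the cluster itself hold 20 other annotated genes, of which 13 were tested. In L854F 4 of the 13 were called, where 5.54% of all tested genes were, with Svip (0.35, adjusted p 0.0229) and CG4080 (0.34, adjusted p 0.00293) higher, and UGP (-0.41, adjusted p 0.0322) and Fdx1 (-1.01, adjusted p 0.0188) lower. In JmjC 3 were called, near the 17.3% of all tested genes, with Klp67A higher (0.37, adjusted p 0.0118) and mRRF1 (-0.68, adjusted p 0.0252) and eIF4E1 (-0.22, adjusted p 0.00929) lower. Their median log2 fold change was -0.06 in L854F and -0.16 in JmjC, against 0.58 and 0.57 for the 6 tested cluster members. Fdx1, a ferredoxin gene next to Hsp67Bc, averaged 7.003 ± 0.411 CPM in L854F, 10.04 ± 1.49 CPM in JmjC and 14.1 ± 5.05 CPM in WT (SD, n = 4). The antisense gene across Hsp67Ba, asRNA:CR43481, averaged 1.12 CPM in L854F, 1.75 CPM in JmjC and 1.42 CPM in WT and was not called.

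**Figure D4:**
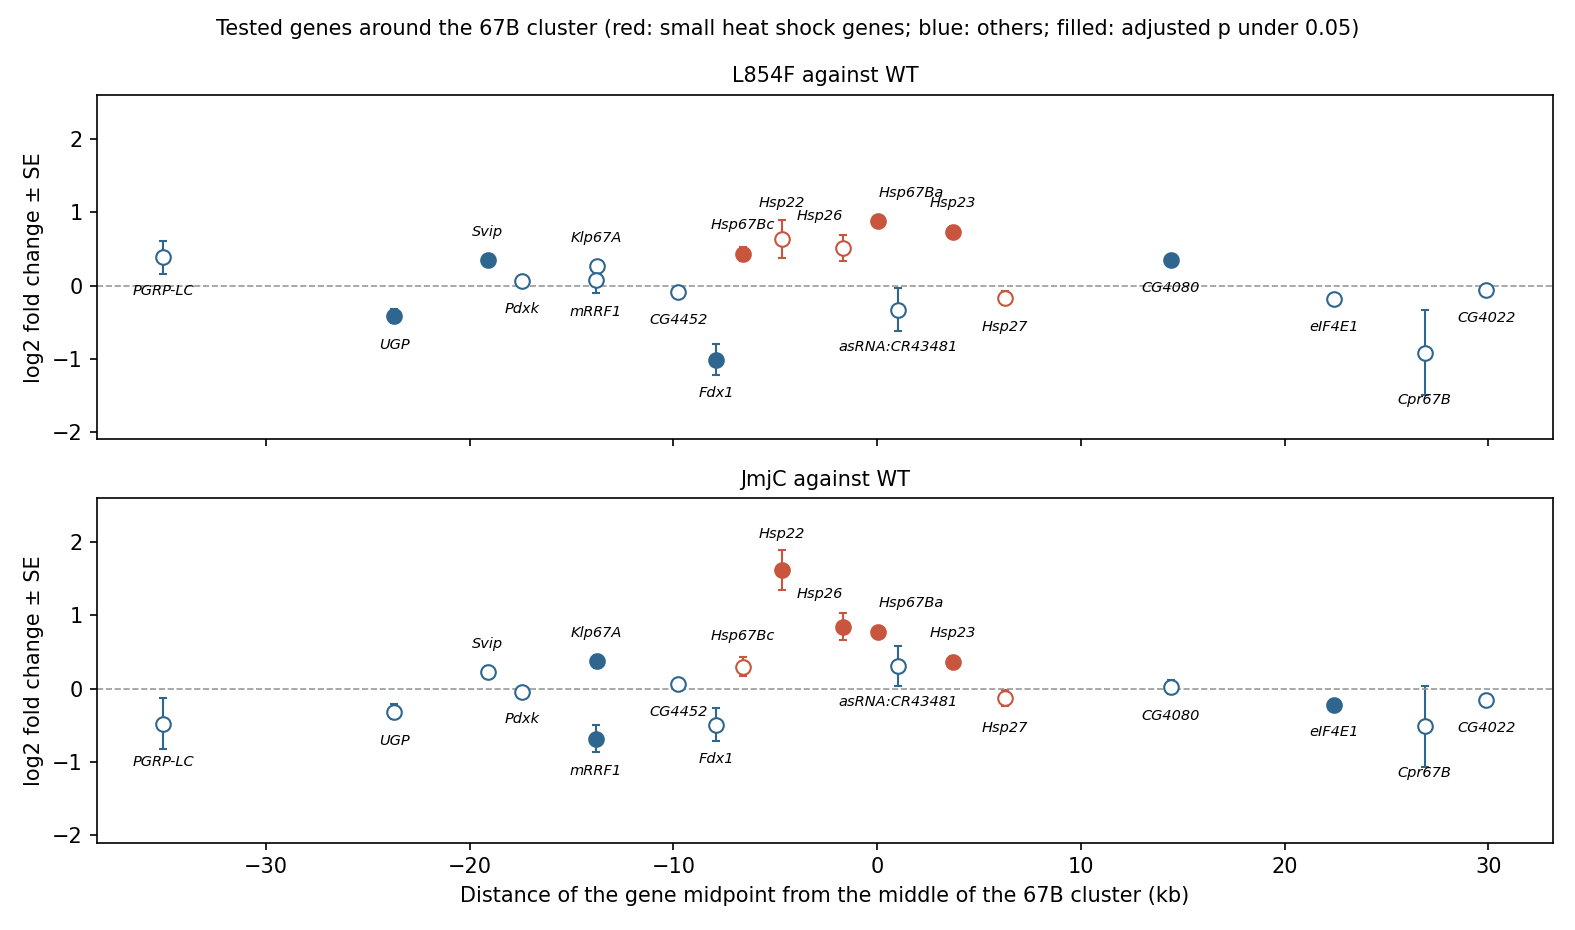
Log2 fold change (± SE) in L854F against WT (upper panel) and JmjC against WT (lower panel) for the tested genes around the 67B cluster, by distance in kb of the gene's midpoint from the cluster's middle. Red points are small heat shock genes, blue points other genes, and filled points had an adjusted p under 0.05. Hsp27 at the right edge of the cluster lies slightly below 0 in both panels, unlike the other red points.

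The genes with the most similar pattern over the 12 samples were looked up among 9053 genes tested in both mutants, by Pearson correlation of log2 CPM. Samples share genotypes and libraries, so these values are descriptions only. Hsp22 and Hsp26 were each other's closest gene (r = 0.96), followed by pes for Hsp22 (r = 0.93) and oc for Hsp26 (r = 0.96). For Hsp67Ba the closest were CG6005 (r = 0.98) and CG32581, also called sordd2 (r = 0.97). CG6005 stood at 22.0 CPM in L854F, 21.3 CPM in JmjC and 12.1 CPM in WT, and CG32581 at 35.4, 35.4 and 0.0593 CPM. By Spearman correlation neither was among the closest to Hsp67Ba, with CG6005 at place 40 (rho 0.83) and CG32581 at place 1359 (rho 0.44). For Hsp23 the closest by Pearson correlation were CG11349 (r = 0.96), at 5.73, 2.23 and 0.318 CPM, and Tre1 (r = 0.91). For Hsp67Bc they were l(1)G0469 (r = 0.94) and CG9328 (r = 0.93), and for l(2)efl lncRNA:CR31451 (r = 0.88) and TotA (r = 0.86). Hsp27 had the loosest matches, with CG3342 (r = 0.85) and TMS1 (r = 0.83).

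Samples with the same replicate number tended to share low values of some genes. Replicate 4 was the lowest sample in 13 of the 24 combinations of gene and genotype, and Hsp27 and Hsp67Ba were lowest in replicate 4 of every genotype. For l(2)efl replicate 4 was the highest sample in every genotype. The same count was not made over all genes, and the 24 combinations come from the same libraries. Over all tested genes, deviations from group means in same-numbered samples correlated at only -0.076 to 0.177. What the replicate number stands for is not given in the sources used here.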

How the data were processed

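The deposited tables hold RSEM expected counts per gene, one table for each mutant with the same 4 WT samples, and the values were already whole numbers. Bowtie2 2.2.5, RSEM 1.2.12, DESeq2 and build dm6 are named, per the submitters' processing notes, and their settings are not given in the sources used here. The authors' deposited comparison tables also give log2 fold changes, p-values and gene length; their mean expression signal per group, whose scaling the authors do not state, was not used here.

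Every contrast used only the 8 samples of its own genotypes and was fitted over all genes with edgeR 4.0.16 (R 4.3.3): filterByExpr (minimum count 10, minimum total 15), TMM scaling, quasi-likelihood F-test and Benjamini-Hochberg adjustment over all genes tested, and a gene was called below an adjusted p of 0.05. The contrast between the mutants used genes in both tables. The fitting code was tested on simulated data. Printed CPM use TMM factors from all 12 samples, except means beside a fold change of a gene outside the 8, which come from that comparison's fit. Alternatives were library totals or RLE scaling, DESeq2 1.42.0, no low-count filter, all 12 samples in one fit, a replicate block, robust dispersion, an adjusted p under 0.01 and leaving out each sample. Exact permutation tests used scipy 1.17.1 over 70 assignments.

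In L854F against JmjC, same-numbered samples had correlations of deviations from group means of 0.109 to 0.177, all above 0.1. Differently numbered samples also passed 0.1, at 0.114 (L854F replicate 3 with JmjC replicate 4) and 0.102 (L854F replicate 4 with JmjC replicate 2). The labels state no pairing, and these values do not settle it. The main fit used no pairing, and the fit with a replicate block is given beside it. Against WT the same-numbered correlations ranged from 0.041 to 0.143 for L854F and from -0.076 to 0.101 for JmjC. Between samples of a group, chi-square per degree of freedom was 8.13 or more, so no sample was a copy of another.

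Members and lists were chosen with earlier results of these data known. Beyond the 8 genes, the text names up to 3 called genes with the smallest adjusted p per list, called neighbours, and the 2 genes most alike in pattern. Values of other listed genes, such as Hsp68, are named as context. Of 156 list entries 8 had no match. Sequences were not used here.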

Additional observations from a re-analysis of the deposited data

Results flagged for a closer look

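The effects of the mutants against WT differed for 3 of the 7 tested small heat shock genes, by the direct test of L854F against JmjC (edgeR quasi-likelihood test, without a replicate block). The log2 fold change was -0.98 for Hsp22, 0.37 for Hsp23 and -0.32 for Hsp26. Hsp23 thus differed in the opposite direction from Hsp22 and Hsp26, and the difference for Hsp26 was lost under the settings named above.

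Hsp67Bb in WT had a highest sample that stood apart from the others, replicate 1 at 0.179 CPM. This rests on 3 counts against 1 in each of the other WT samples, and chance marks about 1 in 20 groups in this way, with 24 groups examined.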

How the results depend on the processing

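For the tested genes, leaving out any 1 sample gave 307 to 426 called genes in L854F against WT, 1148 to 1698 in JmjC against WT and 977 to 1725 in L854F against JmjC. An adjusted p under 0.01 left 212, 812 and 659. Small heat shock genes called when 1 sample was left out numbered 2 to 5, 4 to 5 and 2 to 3 in the same order. Scaling by library totals or RLE, DESeq2, robust dispersion and no filter kept the same small heat shock genes called in all 3 comparisons. With the replicate number as a block, 514, 1647 and 2038 genes were called; Hsp67Bc was then called in JmjC (adjusted p 0.0316) and Hsp26 was not called between the mutants (0.0513), and no other call among the 8 changed. The sign changed only for uncalled genes when 1 sample was left out: l(2)efl ranged from -0.23 to 0.66 in L854F against WT and from -0.63 to 0.13 between the mutants, and Hsp27 from -0.11 to 0.029 between the mutants. The cause was not tested. Without division by length, 4 of 7 genes kept their place in the WT order. With Spearman correlation, 5 of the 14 genes named for a similar pattern stayed among the closest 2. Hsp67Bb had 0 to 10 counts a sample.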
